A study of Mus musculus with 12 samples.

Results

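Immediate early genes are the first genes that a cell transcribes after a stimulus. Their messages appear without new protein synthesis and decay quickly, so a level in tissue reflects a short window before it was collected. Calcium entry and MAP kinase signalling reach their promoters through CREB, which binds cAMP response elements, and through serum response factor with its Elk partners. In spinal cord they respond to neuronal activity and also to injury, handling and glial activation.

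Here 10 immediate early genes were followed in RNA-seq libraries of total spinal cord from mice aged 7 months. The members were the 10 rows of the raw count table with the gene symbols Fos, Fosb, Egr1, Arc, Npas4, Junb, Nr4a1, Ier2, Dusp1 and Btg2, lying on chromosomes 12, 7, 18, 15, 19, 8, 15, 8, 17 and 1 in that order, out of 45906 genes in the table and 20155 genes that passed a filter on low counts. All 10 passed that filter. The mice were on a C57BL/6 background and fell into 4 genotypes with 3 mice each. These were Plekhg5+/+ (wildtype), Plekhg5-/- (lacking Plekhg5, a guanine exchange factor that acts in the autophagy of synaptic vesicles), Plekhg5+/+ SOD1G93A and Plekhg5-/- SOD1G93A. SOD1G93A is the low copy human SOD1 transgene used as a slowly progressing model of amyotrophic lateral sclerosis, and the promoter that drives it is not given in the sources used here. The study asked how loss of Plekhg5 alters the transcript changes that this transgene brings.

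The library totals were 30415643 to 38743628 counts. Plekhg5 was at 19.4 to 25.0 CPM (counts scaled to the library total) in the 6 libraries with intact Plekhg5 and at 3.28 to 4.72 CPM in the 6 Plekhg5-/- libraries, and human SOD1 was at 4421 to 5638 CPM with the transgene and at 0.153 to 5.47 CPM without it, so both labels held in all 12 libraries. Over all libraries neuronal markers (5 genes) summed to 4233 to 5076 CPM and motoneuron markers (5 genes) to 148 to 228 CPM. Every Plekhg5+/+ SOD1G93A library lay below every Plekhg5+/+ library in both, at 4233 to 4768 against 4903 to 5076 CPM for neurons and at 148 to 194 against 199 to 215 CPM for motoneurons. With the transgene in Plekhg5+/+ mice 6 of 7 microglial and 1 of 5 astrocyte markers rose, while 0 markers of neurons, motoneurons, oligodendrocytes, endothelium, Schwann cells or red cells were called (edgeR, adjusted p under 0.05). At an unadjusted p under 0.05, 2 of 5 neuronal and 4 of 5 motoneuron markers counted (edgeR), against 18.2% of all genes. A positive log2 fold change was found for 0 of 5 in either list. Y-linked transcripts were present in 3, 2, 2 and 1 libraries of Plekhg5+/+, Plekhg5-/-, Plekhg5+/+ SOD1G93A and Plekhg5-/- SOD1G93A, so sex was not balanced between genotypes. In total tissue, fewer cells of a type and less RNA per cell cannot be told apart. Mouse numbers below name a library within its genotype, and the labels give no pairing between genotypes.

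RefSeq promoter windows (GRCm38.p6, 250 bases before the start and 50 from it) were at hand for 7 of the 10 members, all but Egr1, Arc and Ier2. The windows of Fos, Fosb, Junb and Btg2 are printed because these members carried the largest differences or the widest spread. Capitals mark the core of the cAMP response element, TGACG on either strand, and the whole palindrome TGACGTCA where it is present, with which the core overlaps.
Fos, chr12:85473640-85473939, plus strand: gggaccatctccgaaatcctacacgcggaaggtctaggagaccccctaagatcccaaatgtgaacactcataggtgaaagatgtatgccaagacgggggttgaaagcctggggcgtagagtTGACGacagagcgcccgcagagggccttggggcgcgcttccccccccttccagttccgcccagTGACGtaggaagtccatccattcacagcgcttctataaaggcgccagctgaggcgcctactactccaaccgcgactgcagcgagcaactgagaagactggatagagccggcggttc
Fosb, chr7:19309996-19310295, minus strand: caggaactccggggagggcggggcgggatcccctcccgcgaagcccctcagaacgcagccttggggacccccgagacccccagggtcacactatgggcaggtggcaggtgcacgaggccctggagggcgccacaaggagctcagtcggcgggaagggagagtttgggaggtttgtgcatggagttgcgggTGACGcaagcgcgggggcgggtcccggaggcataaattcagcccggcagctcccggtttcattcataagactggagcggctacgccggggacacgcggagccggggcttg
Junb, chr8:84978699-84978998, minus strand: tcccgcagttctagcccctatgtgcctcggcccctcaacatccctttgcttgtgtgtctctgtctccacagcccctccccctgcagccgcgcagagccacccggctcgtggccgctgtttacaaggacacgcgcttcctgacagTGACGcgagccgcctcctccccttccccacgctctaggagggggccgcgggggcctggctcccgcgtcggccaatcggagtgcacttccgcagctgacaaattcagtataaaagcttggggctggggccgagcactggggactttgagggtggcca
Btg2, chr1:134079106-134079405, minus strand: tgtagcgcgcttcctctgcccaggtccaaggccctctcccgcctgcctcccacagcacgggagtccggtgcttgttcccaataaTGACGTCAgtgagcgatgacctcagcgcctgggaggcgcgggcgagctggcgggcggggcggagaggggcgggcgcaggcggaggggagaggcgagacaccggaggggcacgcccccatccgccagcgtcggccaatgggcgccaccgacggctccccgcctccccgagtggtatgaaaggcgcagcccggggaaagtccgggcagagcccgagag

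The core TGACG was found in 7 of 7 member windows, against 20.8% of the 32851 promoter windows of this length. Counted from the start as 0, it began at -129 and -66 in Fos, at -60 in Fosb and at -106 in Junb. Npas4 held it at 2 places and Nr4a1 at 4. The full element TGACGTCA was found in Dusp1 and Btg2, beginning at -143 and -166, and in 1.79% of all windows. The CArG box, the serum response factor motif, was in 0 of 7 member windows and in 1.63% of all windows. The EGR motif GCGTGGGCG was in 0 of 7 and 0.612%, the AP-1 motif (TGACTCA or TGAGTCA) in 0 of 7 and 5.20%, TATAAA in 2 of 7 (Fos and Junb) and 13.6%, and CCAAT in 2 of 7 (Junb and Btg2) and 37.4%, each searched on both strands. These are letter matches within the window and say nothing of what lies outside it or of factor binding.

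Levels between genes were compared as CPM per kilobase of exon. The order by the median of the 12 libraries was Egr1 at 11.6, Arc at 10.5, Dusp1 at 8.07, Fos at 7.50, Junb at 7.16, Nr4a1 at 3.15, Btg2 at 3.02, Ier2 at 2.88, Fosb at 0.702 and Npas4 at 0.464 CPM per kilobase. Ranges over the libraries separated neighbours at 2 places in that order. Junb (6.16 to 13.3) lay above Nr4a1 (2.23 to 4.90), and Ier2 (2.21 to 4) lay above Fosb (0.560 to 1.34). All other neighbours overlapped. The Npas4 value rests on an exon length of 16747 bases in the deposited table, the longest of the members, and its counts were not whole in 4 libraries.

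No member passed the test in any comparison. By edgeR's quasi-likelihood test with Benjamini-Hochberg adjustment over 20155 genes, 0 of 10 members had an adjusted p under 0.05 for the transgene with Plekhg5 intact (percent of all genes called 2.47), for Plekhg5 loss in SOD1G93A mice (0.0347), for Plekhg5 loss without the transgene (0.0298) or for the transgene without Plekhg5 (0.00496). The same held for the transgene averaged over both Plekhg5 backgrounds (1.22), for Plekhg5 loss averaged over both (0.0546) and for their interaction (0). At an unadjusted p under 0.05 the members numbered 3, 2, 0, 0, 2, 4 and 0 of 10 in these 7 comparisons, against 18.2%, 8.64%, 5.32%, 5.38%, 14.7%, 3.88% and 9.05% of all genes. The count for averaged Plekhg5 loss (4) rested on single libraries, since it was 1 without Plekhg5+/+ mouse 1, Plekhg5-/- mouse 1 or Plekhg5-/- SOD1G93A mouse 1, 6 without Plekhg5+/+ mouse 3 and 7 without Plekhg5-/- mouse 3, and over all 12 such fits it ran from 1 to 7. The count for Plekhg5 loss without the transgene (0) was 4 without Plekhg5-/- mouse 3 and 3 without Plekhg5+/+ mouse 3. In the order above, leaving out 1 library gave 1 to 4, 1 to 4, 0 to 4, 0 to 1, 1 to 3, 1 to 7 and 0 to 2 members. The shares of all genes at that threshold in these refits are not given here, so these counts have no background beside them. DESeq2 called 1 member, Junb, in Plekhg5 loss in SOD1G93A mice and 0 in the other comparisons. The 4 pairwise comparisons share genotypes, so their values are set side by side and are not independent.

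**Figure D1:**
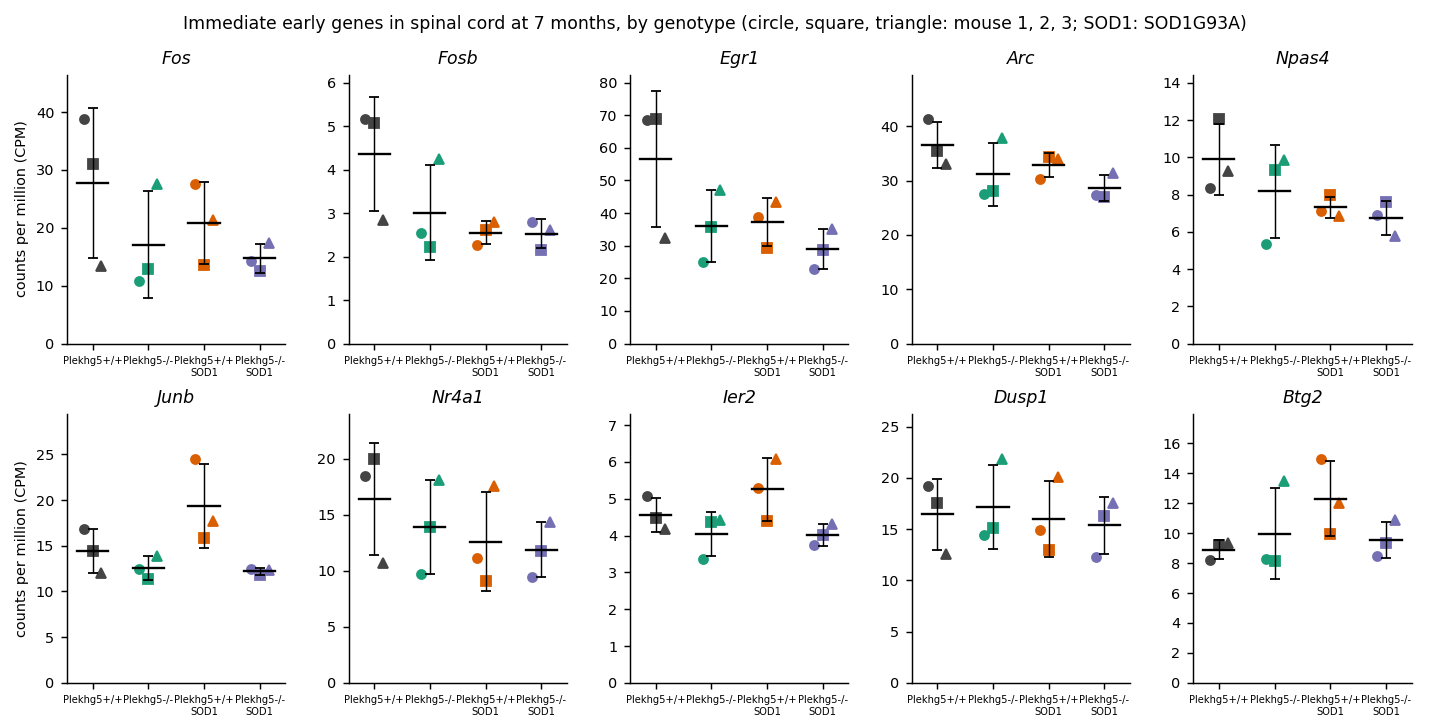
CPM (linear axis from 0) of each member in each library, by genotype; symbols give mouse 1 to 3, the thick bar is the mean and the whiskers are the SD of 3 mice. Fos spans 13.4 to 38.7 CPM within the Plekhg5+/+ mice alone, while the 3 Plekhg5+/+ SOD1G93A mice have 15.9 to 24.5 CPM of Junb, above the 3 Plekhg5-/- SOD1G93A mice at 11.8 to 12.5 CPM.

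Fos, Fosb and Junb encode subunits of the AP-1 transcription factor, in which a Fos protein pairs with a Jun protein. Fos was at 38.7, 31.0 and 13.4 CPM in Plekhg5+/+ mice 1 to 3 and at 10.8, 12.9 and 27.6 CPM in Plekhg5-/- mice. It was at 27.5, 13.5 and 21.4 CPM in Plekhg5+/+ SOD1G93A mice and at 14.2, 12.5 and 17.4 CPM in Plekhg5-/- SOD1G93A mice. Each genotype except Plekhg5-/- SOD1G93A thus held both a low and a high mouse, and all 4 genotypes overlapped. The log2 fold change with the transgene was -0.41 (SE 0.44, adjusted p = 0.674, edgeR) with Plekhg5 intact and that of Plekhg5 loss in SOD1G93A mice was -0.50 (SE 0.44, adjusted p = 0.732, edgeR).

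Fosb, which also gives rise to the long-lived ΔFosB protein, was at 5.16, 5.07 and 2.85 CPM in Plekhg5+/+ mice and at 2.27, 2.61 and 2.79 CPM in Plekhg5+/+ SOD1G93A mice. The Plekhg5-/- mice had 2.55, 2.23 and 4.26 CPM and the Plekhg5-/- SOD1G93A mice 2.81, 2.16 and 2.62 CPM. All 3 Plekhg5+/+ SOD1G93A mice lay under all 3 Plekhg5+/+ mice, although Plekhg5+/+ mouse 3 lay only just above them. The log2 fold change with the transgene was -0.77 (SE 0.26, unadjusted p = 0.0113, adjusted p = 0.136, edgeR), the largest of any member in that comparison. Without Plekhg5+/+ mice 1 and 2, a setting chosen after seeing the data, it was -0.16 (adjusted p = 0.9, edgeR).

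Junb, a partner of Fos proteins, had the smallest unadjusted p of any member. It was at 16.8, 14.5 and 12.0 CPM in Plekhg5+/+ mice and at 24.5, 15.9 and 17.7 CPM in Plekhg5+/+ SOD1G93A mice. In Plekhg5-/- mice it was at 12.5, 11.3 and 13.9 CPM and in Plekhg5-/- SOD1G93A mice at 12.5, 11.8 and 12.4 CPM. The 3 Plekhg5-/- SOD1G93A mice lay close together and under every Plekhg5+/+ SOD1G93A mouse. For Plekhg5 loss in SOD1G93A mice the log2 fold change was -0.67 (SE 0.16, unadjusted p = 0.000957, adjusted p = 0.402, edgeR), and DESeq2 gave -0.66 without a prior on fold changes (adjusted p = 0.0236) and -0.45 with it (adjusted p = 0.0167). These 2 DESeq2 fits called 0.424% and 0.587% of the genes they tested. With Y-linked transcripts as a covariate in edgeR, the smallest adjusted p of any member in this comparison, Junb included, was 0.795. Leaving out 1 library gave Junb -0.77 to -0.46 in edgeR, with adjusted p from 0.182 to 0.869. The -0.46 (adjusted p = 0.776, edgeR) was the value without Plekhg5+/+ SOD1G93A mouse 1. That mouse also had the highest microglial markers, at 1122 CPM summed over 7 genes against 329 to 662 CPM in the other 11 libraries. In the same comparison microglial markers were at 615 to 1122 CPM with Plekhg5 and at 464 to 523 CPM without it (0 of 7 called, 6 at an unadjusted p under 0.05, edgeR), and Schwann cell markers at 193 to 317 CPM and 426 to 607 CPM (0 of 3 called, 3 at an unadjusted p under 0.05, edgeR). Endothelial markers were at 103 to 128 CPM and 142 to 194 CPM (0 of 5 called, 5 at an unadjusted p under 0.05, all higher), and red cell markers at 939 to 2039 CPM and 564 to 957 CPM (0 of 4 called, 4 at an unadjusted p under 0.05, all lower, edgeR). At that threshold 2 of 5 neuronal and 2 of 5 motoneuron markers also counted, all higher (edgeR). So did 2 of 5 astrocyte and 1 of 5 oligodendrocyte markers. The share of all genes was 8.64%. The part of these cells in the Junb level was not tested. With the transgene alone Junb had a log2 fold change of 0.42 (SE 0.15, adjusted p = 0.165, edgeR), and the interaction was -0.46 (SE 0.22, adjusted p = 0.555, edgeR).

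Egr1 encodes a zinc finger transcription factor induced by MAP kinase signalling. It was at 68.6, 68.7 and 32.4 CPM in Plekhg5+/+ mice and at 38.9, 29.3 and 43.5 CPM in Plekhg5+/+ SOD1G93A mice. It was at 24.9, 35.9 and 47.1 CPM in Plekhg5-/- mice and at 22.9, 28.7 and 35.1 CPM in Plekhg5-/- SOD1G93A mice. Plekhg5+/+ mice 1 and 2 were the highest of the 12 libraries, and Plekhg5+/+ mouse 3 lay within the range of the other genotypes. The log2 fold change with the transgene was -0.60 (SE 0.31, adjusted p = 0.341, edgeR), and without Plekhg5+/+ mice 1 and 2 it turned to 0.20. For Plekhg5 loss without the transgene it was -0.66 (SE 0.31, adjusted p = 0.942, edgeR).

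Npas4 encodes a transcription factor whose induction in neurons depends on calcium entry. It was at 8.35, 12.0 and 9.28 CPM in Plekhg5+/+ mice and at 7.11, 7.95 and 6.88 CPM in Plekhg5+/+ SOD1G93A mice, with no overlap. It was at 5.32, 9.34 and 9.86 CPM in Plekhg5-/- mice and at 6.91, 7.59 and 5.79 CPM in Plekhg5-/- SOD1G93A mice, which overlapped. The log2 fold change with the transgene was -0.43 (SE 0.21, unadjusted p = 0.0546, adjusted p = 0.288, edgeR). Without Plekhg5+/+ mouse 2 it was -0.27. Neuronal and motoneuron markers were also lower in these Plekhg5+/+ SOD1G93A libraries (4233 to 4768 and 148 to 194 CPM), and their part in the Npas4 level was not tested. The Npas4 row, with 16747 exon bases, also reaches upstream of its promoter window. What exons there add to these counts was not tested.

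Nr4a1 encodes an orphan nuclear receptor (Nur77). It was at 18.4, 19.99 and 10.7 CPM in Plekhg5+/+ mice and at 11.1, 9.11 and 17.6 CPM in Plekhg5+/+ SOD1G93A mice. It was at 9.71, 13.9 and 18.1 CPM in Plekhg5-/- mice and at 9.47, 11.8 and 14.4 CPM in Plekhg5-/- SOD1G93A mice. All genotypes overlapped, and the log2 fold change with the transgene was -0.37 (SE 0.30, adjusted p = 0.562, edgeR).

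Arc encodes a postsynaptic protein that drives the removal of AMPA receptors, and it was the steadiest member. It was at 41.3, 35.4 and 33.0 CPM in Plekhg5+/+ mice, at 27.5, 28.1 and 37.8 CPM in Plekhg5-/- mice, at 30.4, 34.4 and 34.0 CPM in Plekhg5+/+ SOD1G93A mice and at 27.4, 27.0 and 31.4 CPM in Plekhg5-/- SOD1G93A mice. Its highest library was 1.53 times its lowest. For Plekhg5 loss averaged over both backgrounds its log2 fold change was -0.22 (SE 0.087, unadjusted p = 0.0262, adjusted p = 0.987, edgeR), beside -0.43 for Junb (unadjusted p = 0.00181, adjusted p = 0.962), -0.28 for Ier2 (unadjusted p = 0.0211) and -0.51 for Egr1 (unadjusted p = 0.0408).

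Dusp1, Btg2 and Ier2 complete the members. Dusp1 encodes a phosphatase that switches off MAP kinases, Btg2 an antiproliferative regulator of mRNA decay, and Ier2 a nuclear protein of the early response. Btg2 was at 8.18, 9.22 and 9.31 CPM in Plekhg5+/+ mice and at 15.0, 9.93 and 12.0 CPM in Plekhg5+/+ SOD1G93A mice, with no overlap. It was at 8.28, 8.13 and 13.5 CPM in Plekhg5-/- mice and at 8.48, 9.32 and 10.9 CPM in Plekhg5-/- SOD1G93A mice. With the transgene Btg2 had a fitted log2 fold change of 0.47 (SE 0.19, unadjusted p = 0.0317, adjusted p = 0.223, edgeR). Ier2 was at 5.28, 4.39 and 6.09 CPM in Plekhg5+/+ SOD1G93A mice and at 3.73, 4.01 and 4.32 CPM in Plekhg5-/- SOD1G93A mice, which did not overlap. With Plekhg5 lost on the transgenic background, Ier2 differed by -0.39 on the log2 scale (SE 0.15, unadjusted p = 0.0239, adjusted p = 0.523, edgeR). In Plekhg5+/+ and Plekhg5-/- mice Ier2 ranged from 4.16 to 5.07 and from 3.36 to 4.42 CPM. Dusp1 had genotype means from 15.4 ± 2.76 (SD, n = 3) CPM in Plekhg5-/- SOD1G93A mice to 17.1 ± 4.11 (SD, n = 3) CPM in Plekhg5-/- mice, a difference smaller than either SD.

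The groups did not overlap for 3 of 10 members (Fosb, Npas4 and Btg2) with the transgene in Plekhg5+/+ mice, against 20.6% of all genes. They did not overlap for 2 of 10 (Junb and Ier2) for Plekhg5 loss in SOD1G93A mice, against 19.5%. For Plekhg5 loss without the transgene and for the transgene without Plekhg5 the counts were 0 of 10 and 0 of 10, against 8.71% and 12.5%. The shares of the first and second comparison were near those of all genes.

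**Figure D2:**
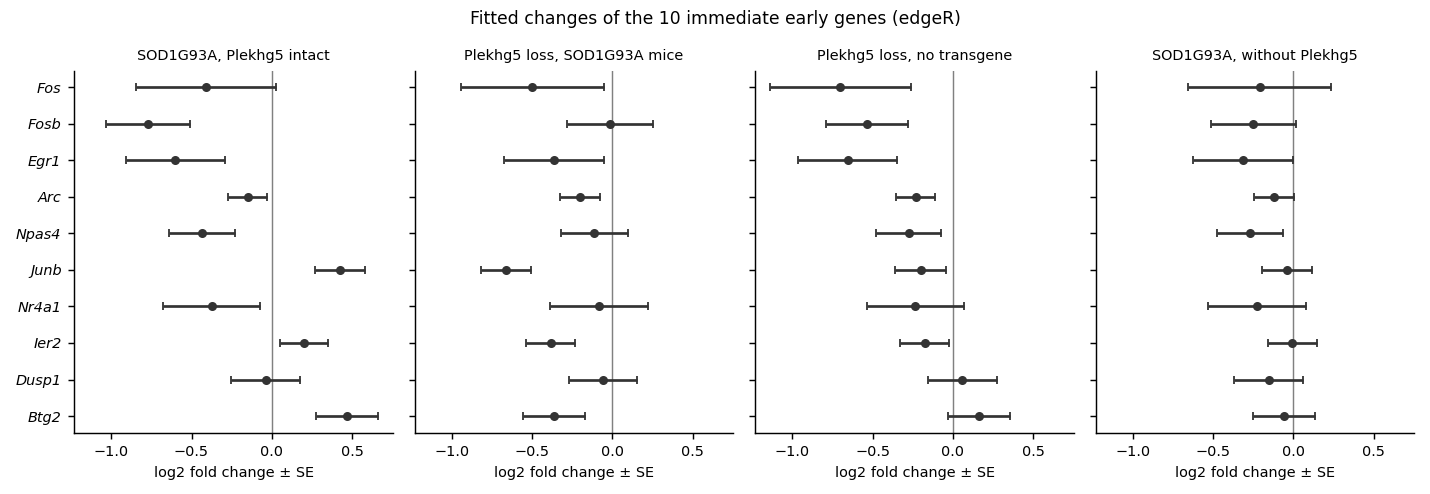
Log2 fold change (x axis) of each member with its standard error from edgeR, in the 4 pairwise comparisons. Members fall on both sides of 0 for the transgene with Plekhg5 intact, from -0.77 (Fosb) to 0.47 (Btg2), and at or under 0 for Plekhg5 loss in SOD1G93A mice.

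By direction, 7 of 10 members had a negative log2 fold change for the transgene with Plekhg5 intact, with a median of -0.26, while the median of all genes was -0.00099. For Plekhg5 loss in SOD1G93A mice 10 of 10 were negative, with a median of -0.28 against -0.0097 for all genes. For Plekhg5 loss without the transgene 8 of 10 were negative (median -0.23) and for the transgene without Plekhg5 10 of 10 (median -0.18). These counts carry no test, since members vary together between mice. Without Plekhg5+/+ mice 1 and 2 the median for the transgene with Plekhg5 intact was 0.29 and that for Plekhg5 loss without the transgene was 0.088. The median for Plekhg5 loss in SOD1G93A mice does not use those libraries and stayed at -0.28. Leaving out 1 library also moved these medians. For the transgene without Plekhg5 it became 0.049 without Plekhg5-/- mouse 3, with 2 of 10 members negative, and -0.087 without Plekhg5-/- SOD1G93A mouse 1. For the transgene with Plekhg5 intact it was -0.072 without Plekhg5+/+ mouse 1. For Plekhg5 loss without the transgene it was -0.10 without Plekhg5-/- mouse 1 and -0.41 without Plekhg5-/- mouse 3, and for Plekhg5 loss in SOD1G93A mice it ran from -0.37 to -0.19, with 7 to 10 of 10 members negative.

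Mice of 1 genotype differed widely in these genes. The SD of log2 CPM within genotypes was 0.61 for Fos, above that of 96.9% of the genes tested, 0.44 for Egr1, 0.44 for Nr4a1 and 0.36 for Fosb. It was 0.31 for Dusp1, 0.30 for Npas4, 0.27 for Btg2, 0.22 for Junb, 0.18 for Ier2 and 0.17 for Arc. The median over the members was 0.31 and over all genes tested 0.15. Across the 12 libraries the highest value was 3.60 times the lowest for Fos and 3.00 times for Egr1.

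The same libraries were high or low for many members. Plekhg5-/- mouse 3 was the highest of its genotype in 10 of 10 members, and Plekhg5-/- mouse 1 was the lowest of all 12 libraries in 3. Plekhg5+/+ mice 1 and 2 were among the 3 highest of the 12 libraries in 8 and 6 members. Plekhg5+/+ mouse 3 was above its genotype mean in 1 member, Btg2.

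**Figure D3:**
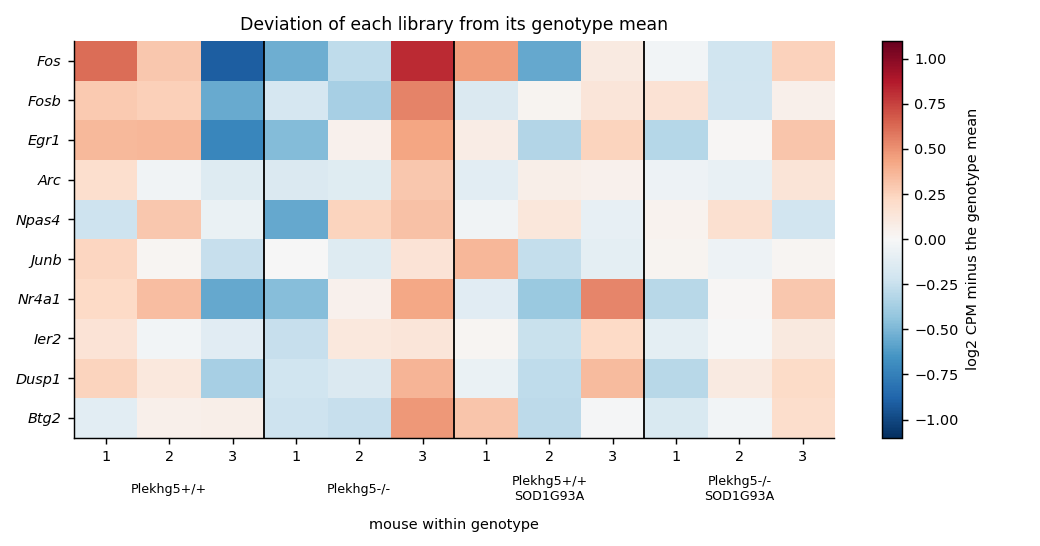
Colour gives log2 CPM of each member (row) minus its genotype mean in each library (columns, 3 mice for each genotype); red is above and blue below the mean. The column of Plekhg5-/- mouse 3 is above the mean for all 10 members, and Fos has the strongest colours, with Plekhg5+/+ mouse 3 the lowest.

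Fos was correlated with each of the other 9 members over the 12 libraries after centring each genotype. Pearson's r was 0.89 for Egr1, 0.81 for Junb, 0.78 for Fosb, 0.78 for Dusp1, 0.77 for Nr4a1, 0.69 for Ier2, 0.68 for Arc, 0.61 for Btg2 and 0.22 for Npas4. All 9 were positive, but none passed the exact within-genotype permutation test (two-sided) after Benjamini-Hochberg adjustment over the 9 tests. Egr1 and Junb came nearest, with exact permutation p = 0.00772 and 0.0116 and adjusted p = 0.0521 for both. At an unadjusted p under 0.05, 4 of 9 members counted (Egr1, Junb, Dusp1 and Nr4a1). By Spearman's rho the adjusted exact permutation p was 0.0382 for Egr1 (rho 0.91) and for Junb (rho 0.85), so 2 of 9 passed, and Npas4 had a rho of 0.15.

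The libraries farthest from the median of Fos were Plekhg5+/+ mouse 3 and Plekhg5-/- mouse 3. Without them r was 0.80 for Egr1, 0.78 for Junb, 0.70 for Btg2, 0.66 for Ier2, 0.64 for Dusp1, 0.63 for Nr4a1, 0.53 for Fosb, 0.46 for Arc and -0.0024 for Npas4. Over the 45 pairs of members, r was positive in 44, with a median of 0.53 and a range from -0.12 (Junb with Npas4) to 0.94. The Npas4 row stood apart from the other members. On the minus strand this row reaches to 5003439, upstream of the Npas4 promoter window at 4989922 to 4990221. What exons there add to its counts and to its r values was not tested. Libraries share normalisation, so these r values describe the libraries.

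**Figure D4:**
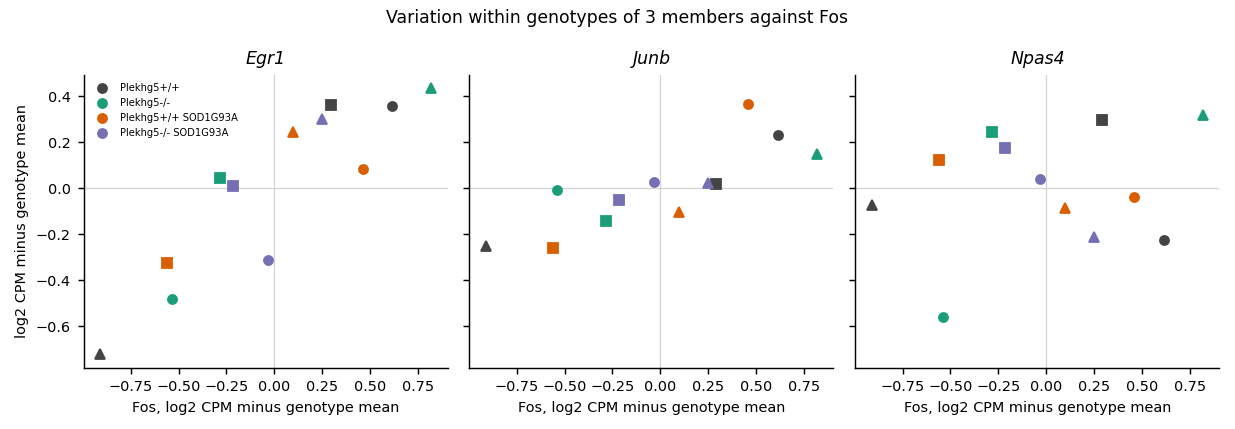
Fos (x axis) against Egr1, Junb and Npas4 (y axis), each as log2 CPM minus the genotype mean; colours are genotypes and symbols are mouse 1 to 3. Egr1 and Junb rise along Fos (r 0.89 and 0.81), while Npas4 is scattered (r 0.22).

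The 10 genes outside the members whose log2 CPM was most like the members' mean standardised level over the 12 libraries were Ehmt2, Egr3, Tent5a, Prdm16, Ppp1r3d, Cdh11, Usp21, Egr4, Gm6039 and Zbtb2, with r from 0.86 to 0.92. Egr3 and Egr4 are immediate early relatives of Egr1. The 36 other rapid genes of the lists described below spread widely by this measure, with r from -0.59 (Jund) to 0.91 (Egr3), a median of 0.39, 33 positive values and 12 over 0.5. Among all tested genes outside the members, an r of 0.504 (Crem) ranked 1135 and an r of 0.00312 (Aqp4) ranked 9338. Fosl2 (r 0.82), Klf2 (0.82) and Nr4a3 (0.81) were near the top, while Jun (0.027), Atf3 (0.11), Egr2 (0.12) and Dusp2 (-0.37) were not. Genes at both ends were picked after their values were seen.

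Plekhg5+/+ mice 1 and 2 also had high levels of genes that respond to handling and stress. Of the 12 libraries they had the highest summed level of 5 heat shock genes, at 932 and 724 CPM against 356 to 470 CPM in the other 10, and of 6 glucocorticoid-responsive genes, at 800 and 699 CPM against 277 to 559 CPM. For the glucocorticoid-responsive genes this held for the sum only. With each gene standardised over the 12 libraries, the mean was 1.34 and 1.12 in these mice and 1.22 in Plekhg5-/- mouse 1, the library with the lowest mean of the members (-1.06). Their summed member level was 230 and 218 CPM, against 119 to 198 CPM in the others. Plekhg5-/- mouse 3, next in the members at 198 CPM, had 404 CPM of the heat shock genes, within the range of the other libraries, and 345 CPM of the glucocorticoid-responsive genes, the lowest of its genotype. With the transgene in Plekhg5+/+ mice 1 of 5 heat shock genes fell (Hsph1, -0.74 on the log2 scale, adjusted p = 0.0146, edgeR) and 0 of 6 glucocorticoid-responsive and 0 of 8 clock genes were called. Mean Hsph1 was 467 ± 104 (SD, n = 3) CPM in Plekhg5+/+ mice and already 282 CPM in Plekhg5-/- mice, both without the transgene. It was 280 CPM in Plekhg5+/+ SOD1G93A and 325 CPM in Plekhg5-/- SOD1G93A mice. For Plekhg5 loss without the transgene 4 of 5 heat shock genes had an unadjusted p under 0.05 (edgeR), and 0 were higher. For the transgene without Plekhg5 these numbers were 0 and 4. The clock genes summed to 413 and 417 CPM in Plekhg5+/+ mice 1 and 2 and to 320 to 413 CPM in the other 10 libraries. Their mean standardised level was 0.72 and 0.80 in these 2 mice, the highest of the 12 libraries, against -0.91 to 0.28 in the others. Schwann cell markers (3 genes) summed to 403 and 430 CPM in Plekhg5+/+ mice 1 and 2 and to 186 CPM in Plekhg5+/+ mouse 3. They were at 190 to 242 CPM in Plekhg5-/- mice and at 193 to 317 CPM in Plekhg5+/+ SOD1G93A mice. In Plekhg5-/- SOD1G93A mice they were at 426 to 607 CPM. The part of heat shock, glucocorticoid, clock or Schwann cell genes, or of handling, in the member levels was not tested.

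**Figure D5:**
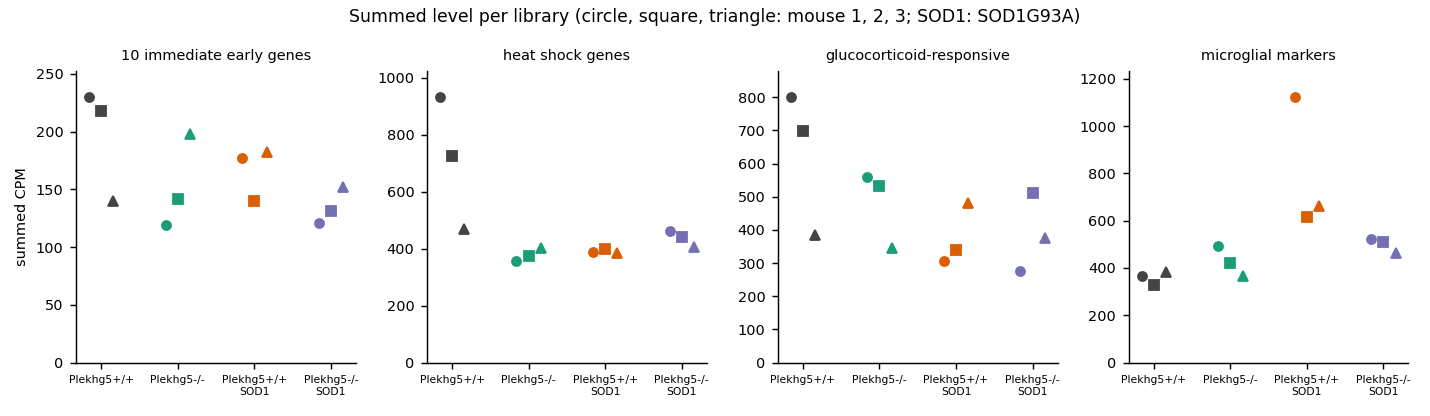
Summed CPM per library (linear axes from 0) of the 10 members, 5 heat shock genes, 6 glucocorticoid-responsive genes and 7 microglial markers, by genotype; symbols are mouse 1 to 3. Plekhg5+/+ mice 1 and 2 are the highest in the first 3 panels, and Plekhg5+/+ SOD1G93A mouse 1 is the highest in microglial markers at 1122 CPM.

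Other genes of the early response were taken from lists. Of 16 other rapid transcription factors 2 rose with the transgene in Plekhg5+/+ mice. Atf3, induced by cell stress and nerve injury, went from 2.72 ± 0.777 (SD, n = 3) to 8.49 ± 5.09 (SD, n = 3) CPM, a log2 fold change of 1.64 (SE 0.38, adjusted p = 0.0452, edgeR). Jund, an AP-1 partner of Fos, went from 85.7 ± 10.6 (SD, n = 3) to 121 ± 4.16 (SD, n = 3) CPM, a log2 fold change of 0.50 (SE 0.11, adjusted p = 0.0372, edgeR). Averaged over both backgrounds Atf3 had 1.66 (SE 0.27, adjusted p = 0.0263, edgeR).

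Of 20 other rapid feedback and signalling genes 2 rose in the same comparison. Ccn1, a matricellular protein, went from 3.15 ± 0.5003 (SD, n = 3) to 10.97 ± 7.37 (SD, n = 3) CPM and rose by 1.80 on the log2 scale (SE 0.36, adjusted p = 0.0278, edgeR). Plk3, a stress kinase, rose by 0.34 (SE 0.080, adjusted p = 0.0467, edgeR). In both lists 0 genes were called lower, and in Plekhg5 loss in SOD1G93A mice 0 were called. With the transgene in Plekhg5+/+ mice 2.47% of all genes were called. At an unadjusted p under 0.05 there, 6 of 16 and 8 of 20 listed genes counted (edgeR), against 18.2% of all genes. A positive log2 fold change was found for 7 of 16 and 13 of 20. The median log2 fold changes with the transgene in Plekhg5+/+ mice were -0.14 and 0.12, and those for Plekhg5 loss in SOD1G93A mice were -0.099 and -0.17. Both lists had 0 genes called without Plekhg5+/+ mouse 1 and without Plekhg5+/+ mouse 2. The transcription factors also had 0 without Plekhg5-/- mouse 2, Plekhg5+/+ SOD1G93A mouse 1 or Plekhg5-/- SOD1G93A mouse 2 or 3, and the feedback genes without Plekhg5+/+ mouse 3. Leaving out any other library gave 1 to 3 and 1 to 2 calls.

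Of 9 slower activity-regulated neuronal genes 0 were called with the transgene by edgeR (4 at an unadjusted p under 0.05, and 2 by DESeq2), and 0 of 9 had a positive log2 fold change, as did 0 of 5 neuronal and 0 of 5 motoneuron markers, whose part in this was not tested. Ptgs2 had the largest at -1.92 (adjusted p = 0.0518, edgeR), followed by Nptx2 at -0.34. Of 16 upstream factors 0 were called by edgeR (3 at an unadjusted p under 0.05, and 1 by DESeq2), with Elk3 at 0.42 (adjusted p = 0.204, edgeR) and Creb1 at -0.38 (adjusted p = 0.0657, edgeR).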

How the data were processed

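Total RNA of spinal cord was poly-A enriched and sequenced (TruSeq Stranded mRNA). The authors deposited expected counts per gene on GRCm38.p6, in which 17.3% to 18.1% of entries are not whole. The submitters' processing notes name bcl2fastq 2.20.0.422, cutadapt 2.4, STAR 2.7.2b and featureCounts 1.6.4. Reads shared between genes were counted as fractions, which touches Npas4. Total counts per library (30415643 to 38743628) set the counting precision.

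Counts were rounded, filtered with filterByExpr, scaled by TMM and fitted with edgeR 4.0.16 (R 4.3.3, limma 3.58.1) in 1 quasi-likelihood model of 4 genotypes, with Benjamini-Hochberg adjustment over 20155 genes and a threshold of 0.05. DESeq2 1.42.0, which the study used with a prior on fold changes, was an alternative. The fit was tested on simulated data. Log2 CPM used a prior count of 2. All columns of the table had a sample. Correlations used an exact permutation test within genotypes (Python). The labels number the mice without saying more of them, so p-values measure the spread between these 12 libraries.

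The members and lists were chosen with earlier results of these data known. Named genes were all members, the listed genes called in a comparison or else the 2 with the largest change with the transgene, and the 10 genes most like the members' mean. Heat shock, glucocorticoid, clock and cell type lists were used as summed levels and as counts of genes called or at an unadjusted p under 0.05. For the glucocorticoid and clock lists the mean standardised level was also used. The alternatives were other size factors, other filters, DESeq2 with and without a prior, fits of only the genotypes compared, a replicate block, a Y-linked covariate, another prior count, no genotype centring and leaving out each library. A fit without Plekhg5+/+ mice 1 and 2 was added after seeing the data.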

Additional observations from a re-analysis of the deposited data

How the results depend on the processing

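The count of members called was 0 in every edgeR setting for all 7 comparisons, and DESeq2 moved it to 1 (Junb) in Plekhg5 loss in SOD1G93A mice, both without and with a prior. The 10 members in 7 comparisons gave 70 log2 fold changes, and 77 of 1440 values under the alternatives had the opposite sign. Of these, 50 came from leaving out 1 library, 20 from leaving out Plekhg5+/+ mice 1 and 2 together (a setting chosen after seeing the data, in which 1 Plekhg5+/+ library is assumed to vary like the other genotypes) and 7 from the other settings. In 9 of the 77 the value in the report exceeded its standard error, all of them without Plekhg5+/+ mice 1 and 2. No member passed the threshold in any setting where its sign turned, and the cause was not tested.

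Without Plekhg5+/+ mice 1 and 2, these log2 fold changes turned. In the transgene with Plekhg5 intact they became 0.64 for Fos, 0.20 for Egr1, 0.24 for Nr4a1, 0.35 for Dusp1. In Plekhg5 loss without the transgene they became 0.35 for Fos, 0.0785 for Fosb, 0.15 for Egr1, 0.0654 for Junb, 0.38 for Nr4a1. In the averaged transgene effect they became 0.21 for Fos, 0.00714 for Nr4a1, 0.0961 for Dusp1. In averaged Plekhg5 loss they became 0.0312 for Fosb, 0.15 for Nr4a1, 0.19 for Dusp1. In the interaction they became -0.85 for Fos, -0.0947 for Fosb, -0.51 for Egr1, -0.12 for Arc, -0.47 for Nr4a1. 

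When 1 library was left out, some values crossed 0, and their lowest and highest log2 fold changes are given. The ranges in the transgene with Plekhg5 intact were -0.24 to 0.0893 for Dusp1. The ranges in Plekhg5 loss in SOD1G93A mice were -0.0955 to 0.0843 for Fosb, -0.26 to 0.23 for Nr4a1, -0.18 to 0.14 for Dusp1. The ranges in Plekhg5 loss without the transgene were -0.16 to 0.19 for Dusp1, -0.12 to 0.29 for Btg2. The ranges in the transgene without Plekhg5 were -0.13 to 0.0579 for Ier2, -0.46 to 0.32 for Fos, -0.43 to 0.0807 for Fosb, -0.21 to 0.0403 for Arc, -0.11 to 0.0376 for Junb, -0.44 to 0.00969 for Nr4a1, -0.27 to 0.058 for Dusp1, -0.18 to 0.22 for Btg2. The ranges in the averaged transgene effect were -0.20 to 0.00922 for Dusp1. The ranges in averaged Plekhg5 loss were -0.11 to 0.0987 for Dusp1. The ranges in the interaction were -0.12 to 0.73 for Fos, -0.0668 to 0.19 for Arc, -0.0655 to 0.32 for Npas4, -0.0491 to 0.47 for Nr4a1, -0.24 to 0.0975 for Dusp1. 

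With the Y-linked covariate, Fosb became 0.0659 in Plekhg5 loss in SOD1G93A mice, Junb 0.0415 and Btg2 0.0291 in the transgene without Plekhg5, and Dusp1 0.0315 in averaged Plekhg5 loss. Dusp1 there also became 0.000215 with DESeq2 size factors, 0.000676 with DESeq2 without a prior and 0.000585 with a prior.

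The number of members correlated with Fos (0 of 9 in the report) was 2 with DESeq2 size factors, 7 without genotype centring, 3 with the replicate block, and between 0 and 6 when 1 library was left out, reaching 6 without Plekhg5+/+ SOD1G93A mouse 1 and 4 without mouse 3. The r of Npas4 with Fos ranged from -0.16 to 0.43 when 1 library was left out. Over the genes tested, same-numbered mice of different genotypes had deviations correlated at r from -0.16 to 0.32. The highest were 0.32 (mouse 1 of Plekhg5+/+ and Plekhg5-/-) and 0.30 (mouse 1 of the SOD1G93A genotypes). Whether same-numbered mice share anything was not tested. The replicate block called 0 members in every comparison. Over the whole table it called 631 genes for the transgene with Plekhg5 intact (498 without it) and 417 for the averaged transgene effect (245 without it).

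Limits lie in 3 mice for each genotype, in the wide spread of these genes between mice and in the Y-linked imbalance. The genes called over the whole table also moved. In the transgene with Plekhg5 intact (498) they numbered 1159 and 1200 with DESeq2, 3 with only the compared genotypes, 0 without Plekhg5+/+ mice 1 and 2, and 2 to 771 when 1 library was left out, with 4 and 2 without Plekhg5+/+ mouse 1 or 2. DESeq2 without and with a prior called 34 and 32 genes in Plekhg5 loss without the transgene (6), 43 and 41 in the transgene without Plekhg5 (1), 822 and 821 in the averaged transgene effect (245), 18 and 21 in averaged Plekhg5 loss (11) and 95 and 112 in the interaction (0). Leaving out 1 library gave 4 to 8, 5 to 59, 1 to 9, 10 to 560, 8 to 10 and 0 to 40 genes in the other 6 comparisons, in the order of the report. The list calls (2 and 2) were 0 and 0 with only the compared genotypes.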
